A study of Saccharomyces cerevisiae SK1 with 6 samples.

Results

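Genes that decide whether a yeast cell enters meiosis were followed by name through direct RNA sequencing of sporulating cultures. They are 6 activators (IME1, IME2, RIM4, RIM11, RIM15 and MCK1) and 4 repressors (RME1, UME6, SIN3 and RPD3). The 10 members were taken by their systematic names, not by their counts, out of 7071 features listed for every library. Earlier results of these data were known when they were chosen. PolyA(+) RNA was read on nanopores from 3 *ime4∆* cultures (strain SAy966, lacking both IME4 and NDT80) and 3 cultures called wild type (strain SAy841, lacking NDT80 alone). Both strains are of the SK1 background and were harvested 5 h into SPO, an acetate medium that induces meiosis. Because both lack NDT80, the transcription factor for exit from meiotic prophase, neither strain can run through the later meiotic programme, and the wild type here is not an unmodified cell. Each library stands for a separate culture.

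IME4 encodes the enzyme that writes m6A on yeast mRNA during meiosis. Ime1 is the transcription factor at the top of the programme, and starvation and the a/α cell type both have to be sensed before it is made. Rme1 represses the IME1 promoter in haploid cells. Ume6 binds the promoters of early meiotic genes and holds them off through Sin3 and the histone deacetylase Rpd3 until Ime1 joins it. The kinases Rim11, Mck1 and Rim15 help bring Ime1 and Ume6 together, Ime2 is the kinase that takes over downstream of Ime1, and Rim4 is an RNA-binding protein needed for early gene expression and for timing of translation. Transcripts of IME1, IME2 and RME1 are among those known to carry m6A. How much RNA stands under each name with and without IME4 is the comparison made here.

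Counts on features totalled 177675 to 341692 in the *ime4∆* libraries and 182876 to 372270 in the wild-type libraries. A count of 0 was given an upper limit of 3 counts, roughly the 95% limit of counting error, or 8.43 to 16.8 CPM. CPM stands for the share of a library's counts, scaled up and corrected with edgeR's TMM factors. Such limits cover counting error only, while the intervals of fold changes given below come from the edgeR fit and include the spread between libraries. In a bulk culture, fewer cells making a transcript and less RNA per cell cannot be told apart. The deletion of IME4 could not be checked from its own counts, which were 0, 0 and 1 in *ime4∆* and 0, 1 and 1 in wild type. NDT80, deleted in both strains, was listed with 13, 9 and 15 counts in *ime4∆* against 17, 1 and 4 in wild type.

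Whether a name marks the transcript of that gene was therefore looked at before any difference. Codon adaptation is the use of the codons preferred in highly expressed genes and normally follows mRNA abundance closely in growing yeast. The preferred codons were taken here from the ribosomal protein genes, so the index and the ribosomal protein names below are not separate checks. Across 5994 coding names, mean CPM over the 6 libraries had a Spearman's rho of 0.093 with the codon adaptation index of the gene named. This rho is a description across features that share the same libraries. The names of 132 cytosolic ribosomal protein genes, which are among the most abundant mRNAs of growing yeast, had a median CPM percentile of 44.9 among all listed features. Of these names, 78 lay below the 50th percentile, 20 had no count at all and 4 lay above the 90th. The 22 glycolytic, chaperone and other abundant genes also looked at had a median percentile of 58.0. Names of tRNA genes, whose products carry no polyA tail, held 16141 counts over the 6 libraries together, on 175 of 275 names. A single library held 177675 to 372270 counts on features. Of all 7071 features listed, 5706 had a count in at least 1 library. Listed levels thus followed codon adaptation only weakly. Codon adaptation and these abundant genes are yardsticks of growing cells, while these cultures were harvested 5 h into SPO. How far that lowers the values was not tested. The values below belong to the names as listed, and which transcript lies behind each could not be tested with the counts alone.

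**Figure D1:**
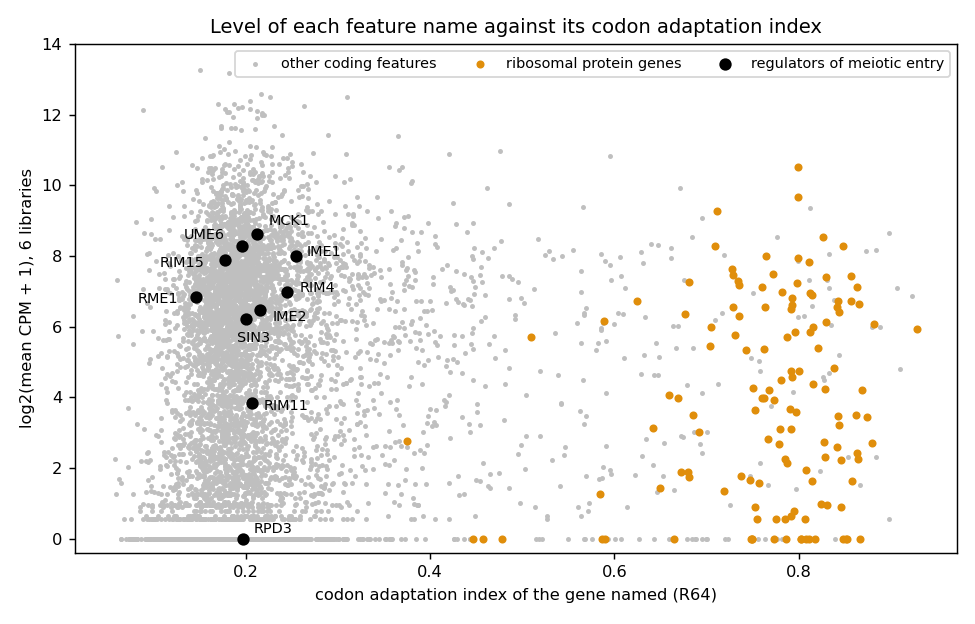
Level of each coding feature name, as log2 of the mean CPM over 6 libraries plus 1, against the codon adaptation index of the gene that carries the name in R64 (no unit). The 10 regulators (black) have indices of 0.146 to 0.254, and many names of ribosomal protein genes (orange), with high indices, lie among the lowest levels or at 0.

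The stretches of chromosome that hold the regulators gave values on both sides of this. Within 51 neighbouring coding names around each regulator (33 for RPD3, near a chromosome end), rho lay between -0.25 around IME2 and 0.34 around RME1, and was negative around IME2, MCK1 and RPD3. Around RME1, the 3 ribosomal protein names within 100 kb had percentiles from 55.9 for RPS25A to 75.6 for RPL11B. Around RIM4, 5 such names ran from 9.66 for RPS20, with no count, to 79.4 for RPL8A. ACT1, the actin gene, stands in the same stretch as RIM15 and was at percentile 50.9. RPS15, the landmark near SIN3, had no count, and no landmark lay within 100 kb of UME6.

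Levels of the 10 names spanned from no count to the upper end of all features. MCK1 had a mean of 396 CPM over the 6 libraries, at percentile 92.2 of the 7071 features, followed by UME6 at 89.5, IME1 at 86.7 and RIM15 at 85.4. RIM4, RME1, IME2 and SIN3 lay between percentiles 64.4 and 73.9, and RIM11 at 45.1. In direct RNA sequencing a read starts at the polyA tail and stands for a molecule, so counts need not grow with length, and levels were ordered on both scales. By mean CPM over the 6 libraries UME6 (312 CPM), IME1 (257 CPM) and RIM15 (238 CPM) came after MCK1. RIM4 (127 CPM), RME1 (113 CPM), IME2 (88.2 CPM), SIN3 (73.5 CPM) and RIM11 (13.3 CPM) followed.

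The genes differ in coding length, from 0.903 kb for RME1 to 5.31 kb for RIM15. Per kb of coding sequence MCK1 had a mean of 351, IME1 238, RME1 125 and UME6 124 CPM per kb. RIM4 followed with 59.1, IME2 with 45.5, RIM15 with 44.7, SIN3 with 15.9 and RIM11 with 11.9 CPM per kb. In this order IME1 lay above RME1 in level, and RIM15 above SIN3, with no overlap of their ranges over the 6 libraries. The ranges of the other neighbouring pairs of names with counts overlapped, so their order is not fixed by these libraries. RPD3 had no count in any library, below the lowest RIM11 value of 3.96 CPM per kb. The limit that no count leaves in a single library overlaps the levels of RIM11. No limit was computed over the 6 libraries together. The place of RIM15 and UME6 depended on the scale, since both lay above RME1 by CPM and level with it or below it per kb.

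**Figure D2:**
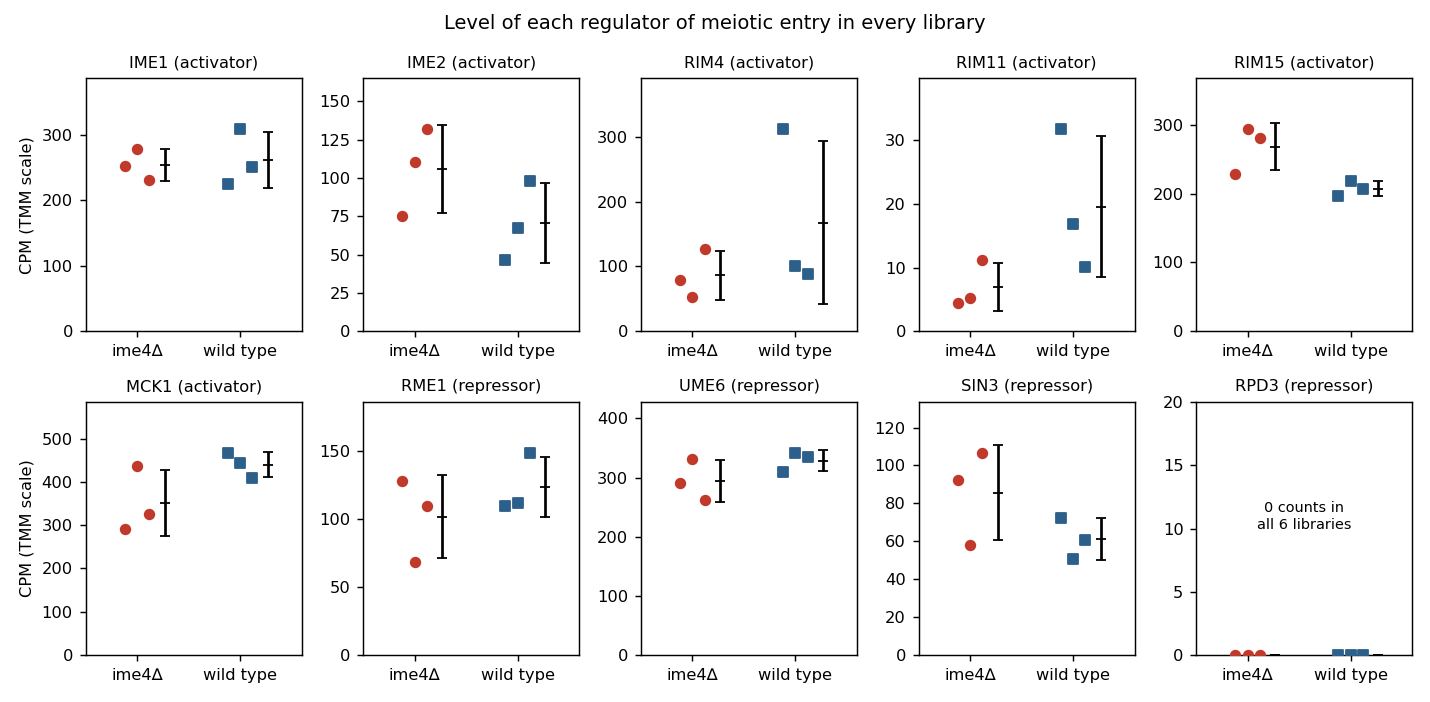
CPM on the TMM scale of each regulator in every library, with *ime4∆* (circles) left of wild type (squares) and replicates 1 to 3 from left to right. Bars show the mean ± SD of 3 libraries, each panel has its own axis starting at 0, and RIM15 is the only panel in which the strains do not overlap.

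IME1 (YJR094C, chromosome X), the master activator, showed no difference between the strains that these libraries could detect. It had 251, 278 and 230 CPM in *ime4∆* replicates 1 to 3, against 225, 308 and 250 CPM in wild type. The highest and the lowest library were both wild type, and the *ime4∆* values lay between them. Its mean was 253 ± 24.1 CPM in *ime4∆* and 261 ± 42.7 CPM in wild type (SD, n = 3 each), a log2 fold change of -0.030 (SE 0.17, 95% interval -0.40 to 0.34, edgeR adjusted p = 0.924). The name beside it, RPL43B, a ribosomal protein gene, had a mean of 7.69 CPM over all libraries, and FIP1 on its other side, a polyadenylation factor gene, had 0.950 CPM.

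IME2 (YJL106W, chromosome X), the kinase downstream of Ime1, had 75.0, 110 and 132 CPM in *ime4∆* against 46.2, 67.3 and 98.1 CPM in wild type. In each strain replicate 3 was the highest, and the lowest *ime4∆* library lay within the wild-type range. The means of 106 ± 28.8 CPM in *ime4∆* and 70.5 ± 26.1 CPM in wild type (SD, n = 3 each) gave a log2 fold change of 0.63 (SE 0.32, 95% interval -0.06 to 1.31), which did not pass the test (edgeR adjusted p = 0.178). Behind these values stood 17, 21 and 47 counts in *ime4∆* and 16, 12 and 29 counts in wild type. Leaving out a library in turn gave 0.34, without wild-type replicate 1, to 0.99, without wild-type replicate 3.

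RIM4 (YHL024W, chromosome VIII) showed the lowest fold change of the tested members, and a single library set it. It had 79.4, 52.5 and 126 CPM in *ime4∆* against 312, 101 and 88.0 CPM in wild type. Wild-type replicate 1 stood far above the other libraries, and the other wild-type values lay within the *ime4∆* range. The mean was 86.1 ± 37.4 CPM in *ime4∆* and 167 ± 126 CPM in wild type (SD, n = 3 each), a log2 fold change of -0.94 (SE 0.43, 95% interval -1.85 to -0.03, edgeR adjusted p = 0.124). Without wild-type replicate 1 it was -0.018 (edgeR adjusted p = 0.985). The fit without wild-type replicate 3 called it lower in *ime4∆* (-1.28, edgeR adjusted p = 0.0311), and so did fits of all 6 libraries without the filter on low counts (-0.96) or with a replicate block (-0.79). Across all alternatives the edgeR and DESeq2 adjusted p ran from 0.00142 to 0.985.

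RIM15 (YFL033C, chromosome VI), a starvation-sensing kinase, was the 1 member of the 8 tested whose strains did not overlap. It had 229, 294 and 281 CPM in *ime4∆* against 196, 219 and 206 CPM in wild type. Every *ime4∆* library lay above every wild-type library, although *ime4∆* replicate 1 was only a little above wild-type replicate 2. The mean was 268 ± 34.3 CPM in *ime4∆* and 207 ± 11.2 CPM in wild type (SD, n = 3 each), a log2 fold change of 0.38 (SE 0.17, 95% interval 0.03 to 0.74). After adjustment over all features it did not pass (edgeR adjusted p = 0.112). Of all features tested, 38.8% had strains that did not overlap in CPM, so that 1 member with this property is a small share.

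MCK1 (YNL307C, chromosome XIV), a kinase of the GSK3 family that promotes IME1 expression, had 291, 436 and 326 CPM in *ime4∆* against 468, 443 and 410 CPM in wild type. *ime4∆* replicate 2 lay within the wild-type range, and the other *ime4∆* libraries lay below it. The mean was 351 ± 75.7 CPM in *ime4∆* and 440 ± 29.2 CPM in wild type (SD, n = 3 each), a log2 fold change of -0.34 (SE 0.17, 95% interval -0.69 to 0.01, edgeR adjusted p = 0.156). The names next to MCK1 were nearly empty, with 1.22 CPM for KRI1 and 1.44 CPM for MRPS18, and the 10 names around it had a median of 1.33 CPM.

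RIM11 (YMR139W, chromosome XIII), the GSK3-family kinase that phosphorylates Ime1 and Ume6, had too few counts for the test. It had 1, 1 and 4 counts in *ime4∆* against 11, 3 and 3 counts in wild type, which are 4.41, 5.25 and 11.2 CPM in *ime4∆* and 31.8, 16.8 and 10.2 CPM in wild type. The highest *ime4∆* library exceeded the lowest wild-type library, so the strains overlapped. In an exact permutation test of CPM the p, for either direction, was 0.2, where 3 libraries against 3 cannot go below 0.1. The edgeR fit without a filter on low counts gave a log2 fold change of -1.38 (adjusted p = 0.231).

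RME1 (YGR044C, chromosome VII), the haploid repressor of IME1, had 128, 68.3 and 110 CPM in *ime4∆* against 110, 112 and 149 CPM in wild type. The lowest library was *ime4∆* replicate 2 and the highest was wild-type replicate 3, with the others close together. The mean was 102 ± 30.5 CPM in *ime4∆* and 124 ± 22.0 CPM in wild type (SD, n = 3 each), a log2 fold change of -0.26 (SE 0.26, 95% interval -0.82 to 0.30, edgeR adjusted p = 0.531). The interval holds differences in both directions.

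UME6 (YDR207C, chromosome IV), the DNA-binding repressor of early meiotic genes, had 291, 331 and 261 CPM in *ime4∆* against 309, 342 and 335 CPM in wild type. *ime4∆* replicate 2 lay within the wild-type range and the other *ime4∆* libraries below it. The mean was 294 ± 34.9 CPM in *ime4∆* and 329 ± 17.5 CPM in wild type (SD, n = 3 each), a log2 fold change of -0.17 (SE 0.15, 95% interval -0.50 to 0.16, edgeR adjusted p = 0.479).

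SIN3 (YOL004W, chromosome XV), the scaffold that Ume6 recruits, had 92.6, 57.8 and 107 CPM in *ime4∆* against 72.2, 50.5 and 60.9 CPM in wild type. *ime4∆* replicate 2 lay within the wild-type range, and the other *ime4∆* libraries lay above it. The mean was 85.7 ± 25.2 CPM in *ime4∆* and 61.2 ± 10.9 CPM in wild type (SD, n = 3 each), a log2 fold change of 0.50 (SE 0.30, 95% interval -0.14 to 1.14, edgeR adjusted p = 0.257). The value was 0.011 once every library had been drawn down to 177675 counts. RPD3 (YNL330C, chromosome XIV), the deacetylase of the same complex, had 0 counts in all 6 libraries. The upper limit for that is roughly 8.43 to 15.8 CPM in an *ime4∆* library and 8.66 to 16.8 CPM in a wild-type library. The 5 names before RPD3 on the chromosome, from DDI2 to AAD14, also had 0 counts, while PEX6 after it had a mean of 49.5 CPM.

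**Figure D3:**
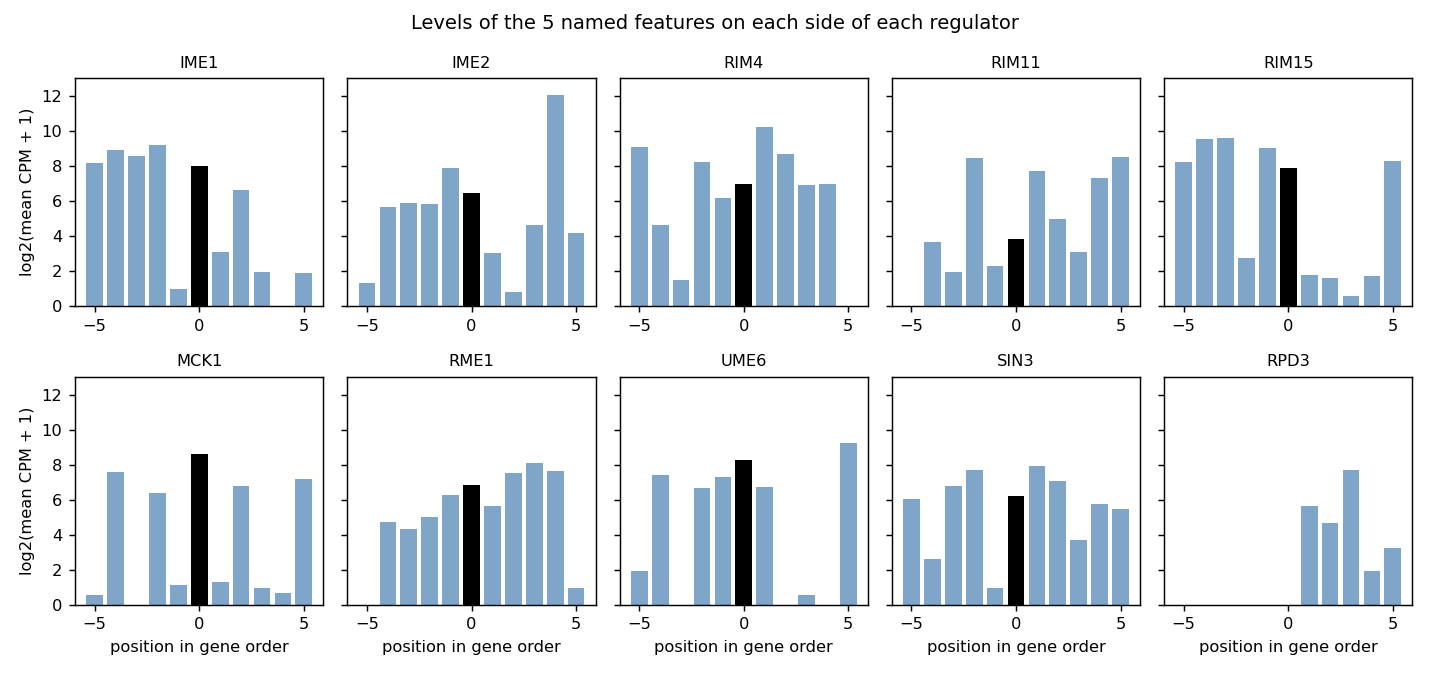
Levels of the 5 named features on each side of each regulator in chromosome order of R64, as log2 of the mean CPM over 6 libraries plus 1, with the regulator in black at position 0. MCK1 stands between low bars (KRI1 at 1.22 and MRPS18 at 1.44 CPM). IME1 stands between FIP1 (0.950 CPM) and RPL43B (7.69 CPM). The highest bar belongs to the name 4 places after IME2, and RPD3 and the 5 names before it have no bar.

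Set together, 8 of the 10 regulators had enough counts for the edgeR test and none of them passed it at an adjusted p under 0.05, while 784 of the 3231 features tested passed (24.3%). By direction, 12.3% of all features tested were higher in *ime4∆* and 11.9% lower. DESeq2 also called 0 members. At an unadjusted p under 0.05 there were 2 members, RIM4 and RIM15, against 35.7% of all features tested. Without the filter on low counts 15.6% of 5706 features were called, and among the members RIM4 was (log2 fold change -0.96, edgeR adjusted p = 0.00142).

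**Figure D4:**
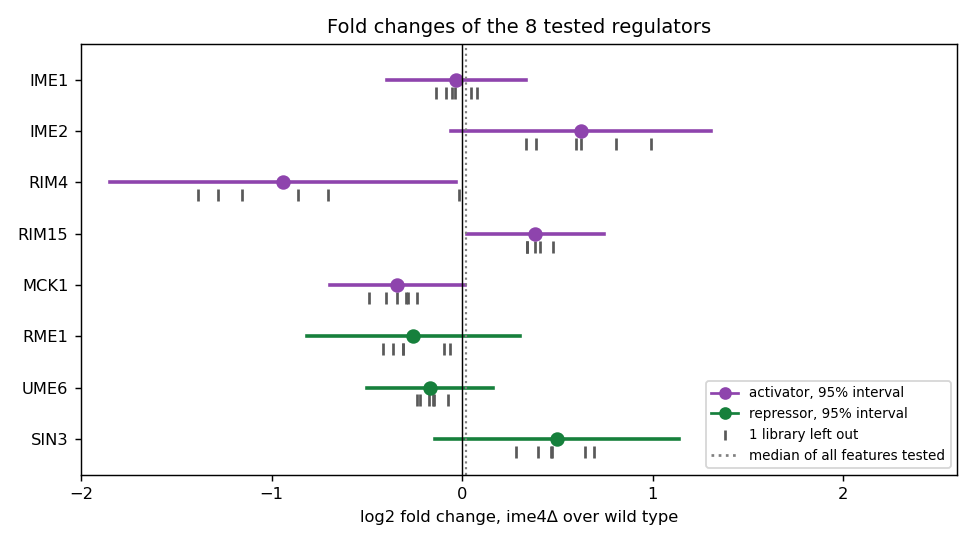
Fold change (log2, *ime4∆* divided by wild type) of the 8 regulators tested, with 95% intervals from the edgeR fit (lines), values with each library left out in turn (ticks) and the median of all features tested (dotted line). The intervals of RIM4 and RIM15 do not reach 0, and 1 tick of RIM4, without wild-type replicate 1, lies at -0.018.

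The activators and the repressors did not part. Of the 5 activators tested, IME2 and RIM15 had positive and IME1, RIM4 and MCK1 negative fold changes, with a median of -0.030 on the log2 scale. Of the 3 repressors tested, SIN3 had a positive and RME1 and UME6 had negative fold changes, with a median of -0.17. The median of all features tested was 0.021. Within each class both signs occurred, and no member of either class passed the test.

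Genes around the regulators were looked at in 10 lists of the pathway. Of 66 genes listed, 43 were tested, of which 5 were higher and 9 lower in *ime4∆* (32.6%, against 24.3% of all features). Early meiotic genes alone, with 12 tested, gave 6 of the lower calls and 1 of the higher ones. Their names carry the same doubt as those of the regulators.

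Upstream, nutrients reach IME1 through protein kinase A (PKA) and other kinases. Of 13 genes of that list 10 were tested, 1 was higher and 2 were lower, with a median log2 fold change of 0.17. Over all features tested 24.3% were called. SNF1, the kinase that relieves glucose repression, averaged 512 ± 90.7 CPM in *ime4∆* and 272 ± 27.7 CPM in wild type (SD, n = 3 each; log2 fold change 0.91, SE 0.17, edgeR adjusted p = 0.00110). CYR1, adenylate cyclase, averaged 227 ± 7.94 CPM in *ime4∆* and 478 ± 294 CPM in wild type (log2 fold change -1.11, edgeR adjusted p = 0.0153). As with RIM4, the spread of CYR1 came from wild-type replicate 1, at 817 CPM against 308 CPM in each of the other wild-type libraries, and without it the log2 fold change was -0.43 (edgeR adjusted p = 0.0976). The CYR1 call was also lost without *ime4∆* replicate 2 or 3, at -1.07 and -1.14. Of 9 factors that bind or act at the IME1 promoter, 4 were tested and SWI6, a cell-cycle transcription factor, was the 1 called, higher at 423 ± 61.7 CPM in *ime4∆* against 265 ± 78.7 CPM in wild type (log2 fold change 0.70, edgeR adjusted p = 0.0208). The SWI6 call was lost with DESeq2 and without wild-type replicate 1 (0.45) or 2 (0.72) or *ime4∆* replicate 2 (0.68) or 3 (0.60). In the Rim101 pathway, which senses alkaline pH, 5 of 6 genes were tested and 0 passed edgeR's test.

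Among the partners of the repressors, 6 of 11 subunits of the Rpd3 large complex and of the Isw2 remodeller, which Ume6 also recruits, were tested. ISW2, the remodeller's ATPase, was lower at 436 ± 135 CPM in *ime4∆* against 1000 ± 385 CPM in wild type (SD, n = 3 each; log2 fold change -1.22, edgeR adjusted p = 0.00238). ITC1, another subunit of the same remodeller, was higher at 505 ± 25.2 CPM in *ime4∆* against 335 ± 28.5 CPM in wild type (log2 fold change 0.60, edgeR adjusted p = 0.00731). Of the remaining subunits tested none passed, and SAP30 had no count. The kinase MRK1, of the family of Rim11, was called higher (0.74, edgeR adjusted p = 0.0459) although its strains overlapped, and it was not called with DESeq2 (0.72), at equal depth (0.68) or without wild-type replicate 1 (0.43) or 2 (0.77) or *ime4∆* replicate 2 (0.67) or 3 (0.58). The cyclin C module, the Sum1 repressor, the Ime2 partner IDS2 and the metabolic genes under Ume6 had 9 members, of which 5 were tested and 0 passed edgeR's test.

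Downstream of Ime1 and Ume6, early meiotic genes included several that differed. Of 16 listed, 12 were tested, 6 were lower and 1 was higher in *ime4∆*, with a median log2 fold change of -0.47. Over all features tested, 11.9% were called lower and 12.3% higher. REC8, the meiotic cohesin, was among the lower ones at -0.50 and was not called without wild-type replicate 2 (-0.42) or 3 (-0.50) or *ime4∆* replicate 2 (-0.43) or 3 (-0.49). REC102, a subunit of the double-strand break machinery, averaged 28.2 ± 10.8 CPM in *ime4∆* and 108 ± 27.8 CPM in wild type (SD, n = 3 each; log2 fold change -1.85, edgeR adjusted p = 0.00146). HOP1 of the chromosome axis (-1.32) and ZIP1 of the synaptonemal complex (-1.30) were lower as well (edgeR adjusted p = 0.00025 for HOP1 and 7.6e-05 for ZIP1). SAE3, an accessory factor of strand exchange, was the 1 gene called higher (log2 fold change 1.39, edgeR adjusted p = 0.00211). It averaged 106 ± 3.35 CPM in *ime4∆* and 40.1 ± 0.735 CPM in wild type. REC102 and SAE3 did not reach 10 counts in every library, and the fit with that filter gave no value for them. That fit tested 8 early meiotic genes and called 5 lower and 0 higher. Every other alternative called both REC102 and SAE3. Summed over the 16 names, early meiotic genes made up 3714 to 4334 CPM in *ime4∆* libraries and 6336 to 7448 CPM in wild-type libraries, with no overlap. This was not particular to them. Sums also did not overlap for the IME1 promoter factors and the Rim101 pathway, both higher in *ime4∆*. The same held for the Rpd3 and Isw2 subunits and the metabolic genes under Ume6, both lower. Of single features tested, 38.8% had strains that did not overlap in CPM. The difference between early meiotic genes and their regulators was not itself tested.

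Markers of other cell states were set beside this. Over 7 mating genes the summed level was 1171 to 1477 CPM in *ime4∆* and 1174 to 1178 CPM in wild type, with STE6 higher (log2 fold change 1.43) and STE2 lower (-1.17) among the 5 tested by edgeR. The 6 genes CLN1, CLN2, CLN3, CLB1, CLB2 and WHI5 were taken as markers of mitotically growing cells. Their summed level was 851 to 1058 CPM in *ime4∆* and 1167 to 1493 CPM in wild type. Of the 6 genes, 2 were tested by edgeR. CLB1 was called lower (-0.70), CLN3 was not called and CLN1 was at 0. The sums of these 6 genes did not overlap between the strains, and the mating sums did. Whether the 6 genes mark growing cells in these cultures was not tested. The CLB1 call was lost with DESeq2, at equal depth and without wild-type replicate 1 (-0.47) or 2 (-0.75) or *ime4∆* replicate 2 (-0.61) or 3 (-0.51). MFA2, STE3, CLB2 and WHI5 had at most 13 counts in all. The part of these markers in the results above was not tested.

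**Figure D5:**
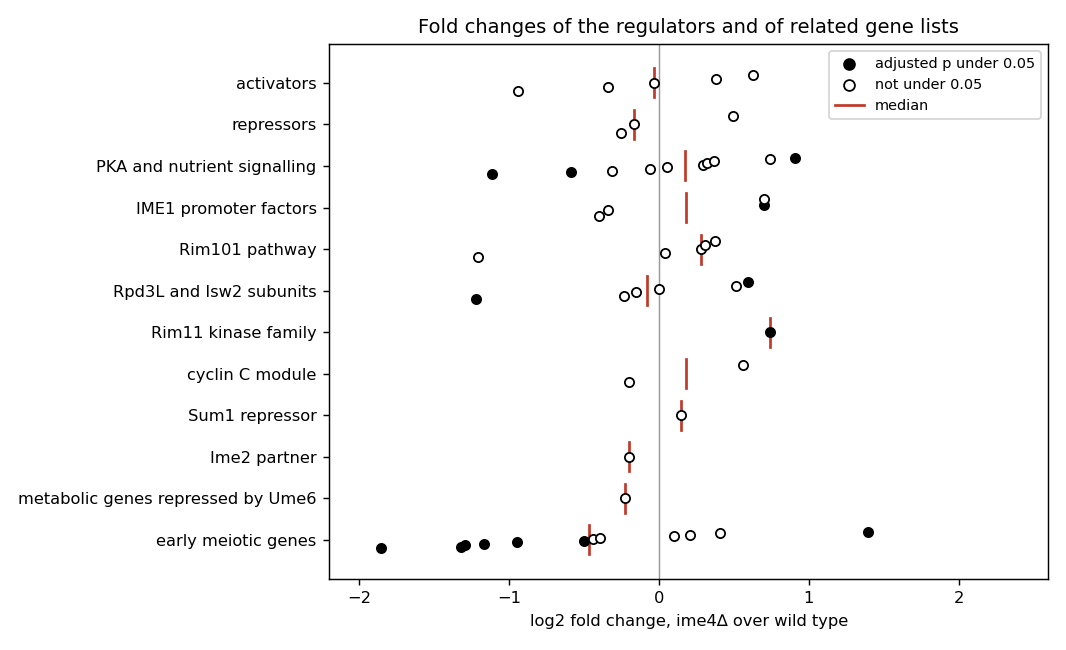
Fold change (log2, *ime4∆* divided by wild type) of each tested regulator, split into activators and repressors, and of each tested gene of the 10 pathway lists (filled, edgeR adjusted p under 0.05, open, not under it, red line, median of the list). No regulator is filled, and 6 of the 7 filled early meiotic genes lie left of 0.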

How the data were processed

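PolyA(+) RNA of 3 *ime4∆* and 3 wild-type cultures was sequenced directly, 1 library per culture. The authors base-called with Albacore, trimmed with NanoFilt, mapped with minimap2 and counted with HTSeq, per the labels and the study's methods. Build, annotation and strand setting are not given in the sources used here, and overlapping or antisense genes cannot be told apart. The deposited values are whole-number counts per feature, neither normalized nor pooled. Of all reads in a file, 72.1% to 75.4% were counted on a feature, 12.9% to 17.9% were ambiguous and 8.20% to 9.60% fell on no feature. The 5 closing lines were left out of library sizes and tests.

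Counts were fitted with edgeR 4.0.16 in R 4.3.3 (TMM, filterByExpr, quasi-likelihood test, strain as the only term) over all features, with p-values adjusted by Benjamini-Hochberg and called under 0.05. The filter kept 3231 features, 8 members among them. SE is the size of the log2 fold change over the square root of F. Alternatives were DESeq2 1.42.0, RLE, library size alone, no filter, at least 10 counts in every library, 177675 counts drawn per library, the replicate number as a block, and each library left out. Figures used matplotlib 3.10.9 and rank correlations scipy 1.17.1.

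Names, lengths, order and codon adaptation came from the R64 annotation of RefSeq, in which 6006 of 7071 names matched. Its coordinates and sequences are not given, since the build of the files is not known. Every member is named. From each list the genes named were those called whose strains did not overlap, at most 4 by size, with MRK1, REC8 and the marker genes added after their values were seen. The values of 1 listed gene are not reported here. Members and lists were chosen with earlier results of these data known. The checks of codon adaptation and of tRNA names were chosen after seeing the data.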

Additional observations from a re-analysis of the deposited data

How the results depend on the processing

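No member crossed the threshold under any alternative except RIM4. DESeq2 called 461 features, against 784 with edgeR, and leaving out a library in turn gave 558 to 782. Scaling by library size alone split the calls into 495 higher and 300 lower in *ime4∆* (399 and 385 with TMM) and moved the median of all features to 0.12 on the log2 scale (0.021 with TMM). The fold change of IME1, close to 0 throughout, turned positive under that scaling (0.072) and after drawing every library down (0.0081), and ran from -0.14 to 0.076 with a library left out, being positive without wild-type replicate 2 or *ime4∆* replicate 3. RIM4 was called lower without the filter (-0.96) and ran from -1.39 to -0.018 with a library left out. Dividing by all lines of the files is dividing by a larger total, so the mean levels fell, 10 of 18 by more than 1 SD. Dividing by the counts on features moved 0 of 18 by that much. SIN3 did not reach 10 counts in every library, RPD3 gave no value under any alternative, and DESeq2 gave no adjusted p for RIM11. The causes of the other changes were not tested.

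The replicate numbers were not taken to pair the libraries. Deviations from the strain means over 2551 features correlated at 0.25, 0.08 and 0.19 for same-numbered libraries 1, 2 and 3, and every *ime4∆* library correlated best with its own number, a hint from the data and not from the design. With the replicate block 1027 features were called, and RIM4 was called lower (-0.79, edgeR adjusted p = 0.00810). The block changed the call of no other member.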

Other observations

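Beside the regulators stood names with far more counts. MEF2, a mitochondrial elongation factor gene and the name 4 places after IME2, held 6934 counts, with a mean of 2730 CPM in *ime4∆* and 5934 CPM in wild type (log2 fold change -1.12, edgeR adjusted p = 0.000134). It was chosen after its values were seen. Of the 49 names tested among the 5 on each side of every regulator, 13 were called (26.5%, against 24.3% of all features), and around RIM11, SIN3 and RPD3 there were 0 by edgeR. Of the 7 names tested around RIM4, OCA5, AIM17 and OPI1 were higher in *ime4∆* and SPO11 was lower, at log2 fold changes of 1.17, 1.32, 0.76 and -1.17. Of the 5 tested around RIM15, 3 were lower in *ime4∆* (TUB2, MOB2 and MIL1, at -0.61, -0.84 and -0.65), while RIM15 itself was at 0.38.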
